A study of Mus musculus with 38 samples.

Results

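The receptors described here were measured in neural stem/progenitor cells (NSPCs). They belong to families that bind epidermal growth factor (EGF), fibroblast growth factor (FGF), insulin and platelet-derived growth factor (PDGF). They are 10 genes, chosen by name, of the 25965 in the RNA table: *Egfr*, *Erbb2*, *Erbb3* and *Erbb4* (ErbB family), *Fgfr1*, *Fgfr2* and *Fgfr3*, *Insr* and *Igf1r*, and *Pdgfrb*. All 10 were found by symbol in the RNA table and in the ChIP table, where they own 53 of 72923 promoter windows. NSPCs came from the subventricular zone (SVZ) of male mice that were young adult (3 months) or aged (18 months). Each C57BL/6JBabr derivation pooled SVZ tissue of several mice, and 3 derivations per age were grown as neurospheres and harvested at the second passage. A further pair of RNA libraries, 1 young adult and 1 aged, came from C57BL/10 mice kept in another facility, so strain and facility cannot be told apart. The labels name no genetic change in any group. All cultures received recombinant human EGF, basic FGF, heparin and B27 supplement. Ligands of *Egfr* and of the FGF receptors were thus in the medium at both ages. Ligands that B27 may hold for the other receptors, such as insulin for *Insr*, are not listed here. The values describe cultured cells, not the niche.

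These receptors belong to the receptor tyrosine kinases of the cell surface. They signal as pairs, which most of them form once ligand binds and which *Insr* and *Igf1r* hold beforehand, and phosphorylated tyrosines and adaptors such as Grb2, Shc1, Frs2 and the Irs proteins pass the signal on to the Ras-ERK and PI3K-AKT pathways. EGF and FGF are the mitogens that keep SVZ cells dividing as neurospheres, and EGFR marks activated stem cells and their dividing progeny. Trimethylation of histone H3 on lysine 4 (H3K4me3) sits at active or poised promoters, trimethylation on lysine 27 (H3K27me3) is laid down by Polycomb at silent ones, and methylated cytosine (5mC) is low at CpG-rich promoters and high in gene bodies.

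The 8 RNA libraries held 16952486 to 41053972 reads, of which 65.5% to 69.3% lay on genes. The NSPC markers were high in every library, led by *Vim* with 1644 and *Fabp7* with 1469 reads per kb of exon, scaled to library size (RPKM). In the test between ages 0 of the 8 passed, as did 0 of all 14858 genes (0%). The summed level of this list, in reads scaled to library size (RPM), was 6532 to 7787 in young adult and 5962 to 7407 RPM in aged C57BL/6JBabr libraries. The astrocyte list ran from 2026 to 2400 RPM in young adult and from 1829 to 2043 RPM in aged libraries, and 0 of its 7 genes passed the test. Markers of other cells were mostly low in these 6 libraries. The microglial list reached at most 7.59 RPM, with *Ptprc* at 0 reads in all 8 libraries, and the endothelial list at most 0.507 RPM, with *Cdh5* at 1 read or fewer in each. The pericyte list ran from 17.1 to 29.1 RPM, most of it *Cspg4*, which oligodendrocyte progenitors also express. The oligodendrocyte lineage list was at 1169 to 1405 RPM, led by *Olig1* and *Olig2*, the ependymal list at 31.2 to 99.2 RPM and the neuronal list at 8.01 to 13.3 RPM. No gene of these lists passed the test between ages, where 0 of all 14858 genes did, so these counts say nothing on cell composition. The RNA kit does not mark the strand, so reads of *Mien1*, *Gm16159* and *G630022F23Rik*, whose exons overlap those of *Erbb2*, *Fgfr1* and *Fgfr3* on the opposite strand, cannot be told apart from reads of these receptors. *Ctbp2* shares exons with *Fgfr2* on the same strand.

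The promoters of 4 receptors are shown, 3 of them richer in CpG than most promoters and 1 poor in it. Each is the 250 bases before the RefSeq start (GRCm38.p6), written 5′ to 3′ on the gene's strand, with every CpG in capitals because these are the bases whose methylation was counted.
*Egfr* (chr11:16751953-16752202, plus strand): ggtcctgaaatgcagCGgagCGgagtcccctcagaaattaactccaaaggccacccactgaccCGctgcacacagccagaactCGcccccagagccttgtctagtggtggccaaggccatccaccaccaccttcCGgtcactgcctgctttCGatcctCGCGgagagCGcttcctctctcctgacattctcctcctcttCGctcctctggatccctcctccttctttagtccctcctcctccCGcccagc
*Erbb4* (chr1:69108060-69108309, minus strand): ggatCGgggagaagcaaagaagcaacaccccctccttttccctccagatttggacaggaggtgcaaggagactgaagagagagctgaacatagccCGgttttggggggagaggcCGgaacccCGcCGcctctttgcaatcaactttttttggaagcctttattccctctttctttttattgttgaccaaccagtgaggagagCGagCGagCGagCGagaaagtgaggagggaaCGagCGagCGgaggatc
*Erbb2* (chr11:98412234-98412483, plus strand): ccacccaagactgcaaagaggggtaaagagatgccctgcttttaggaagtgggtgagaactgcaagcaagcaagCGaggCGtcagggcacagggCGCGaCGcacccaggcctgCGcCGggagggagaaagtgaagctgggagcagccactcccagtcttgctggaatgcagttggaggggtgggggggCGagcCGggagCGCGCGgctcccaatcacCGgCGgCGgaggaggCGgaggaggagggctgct
*Fgfr2* (chr7:130266809-130267058, minus strand): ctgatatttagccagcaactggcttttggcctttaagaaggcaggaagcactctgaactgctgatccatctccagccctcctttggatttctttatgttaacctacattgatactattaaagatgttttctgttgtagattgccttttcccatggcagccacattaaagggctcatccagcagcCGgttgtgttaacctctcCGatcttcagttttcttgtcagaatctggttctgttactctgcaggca
*Egfr* held 11 CpGs, *Erbb4* 12 and *Erbb2* 16, against a median of 6 over 32851 promoters, and *Fgfr2* held 2. The same window held 19 and 24 CpGs at the 2 starts listed for *Fgfr3* and 42 at *Igf1r*, a number reached by 0.865% of promoters. The TATA motif TATAAA was in none of these windows on either strand (12.4% of all promoters hold it). The GC-box letters GGGCGG, searched on both strands, occurred once in *Egfr*, 3 times and 2 times at the *Fgfr3* starts and 2 times in *Igf1r*, and were not in the windows of *Erbb2*, *Erbb4* and *Fgfr2* (32.7% of all promoters hold them). Sequences of 6 of the 10 receptors were in the promoter table, and *Erbb3*, *Fgfr1*, *Insr* and *Pdgfrb* were not.

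Per length of exon, the receptors fell into steps. *Fgfr1*, *Fgfr3* and *Egfr* had the highest levels, with 25.9 ± 2.82, 25.8 ± 3.57 and 25.3 ± 3.06 RPKM (SD over all 8 libraries), and their ranges overlapped. *Insr* (8.53 ± 0.860 RPKM) and *Fgfr2* (8.18 ± 1.65 RPKM) formed the next step and also overlapped. *Erbb2*, the ErbB partner that binds no ligand of its own, followed at 3.12 ± 0.252 RPKM, and *Igf1r*, the receptor of insulin-like growth factors, at 2.22 ± 0.161 RPKM. *Erbb4*, a neuregulin receptor, was at 0.607 ± 0.252 RPKM. *Pdgfrb*, known from pericytes and other mesenchymal cells, and *Erbb3*, the kinase-impaired neuregulin receptor, were at the bottom with 0.0453 ± 0.0224 and 0.0399 ± 0.0219 RPKM, on 4 to 13 and 3 to 13 reads per library. From *Egfr* to *Insr*, from *Fgfr2* to *Erbb2*, from *Erbb2* to *Igf1r*, from *Igf1r* to *Erbb4* and from *Erbb4* to *Pdgfrb* the ranges did not overlap in any library. With the length of the longest transcript in place of all exons, *Fgfr2* rose to 9.70 RPKM, above *Insr*, and the 3 leading receptors changed order within their overlap.

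**Figure D1:**
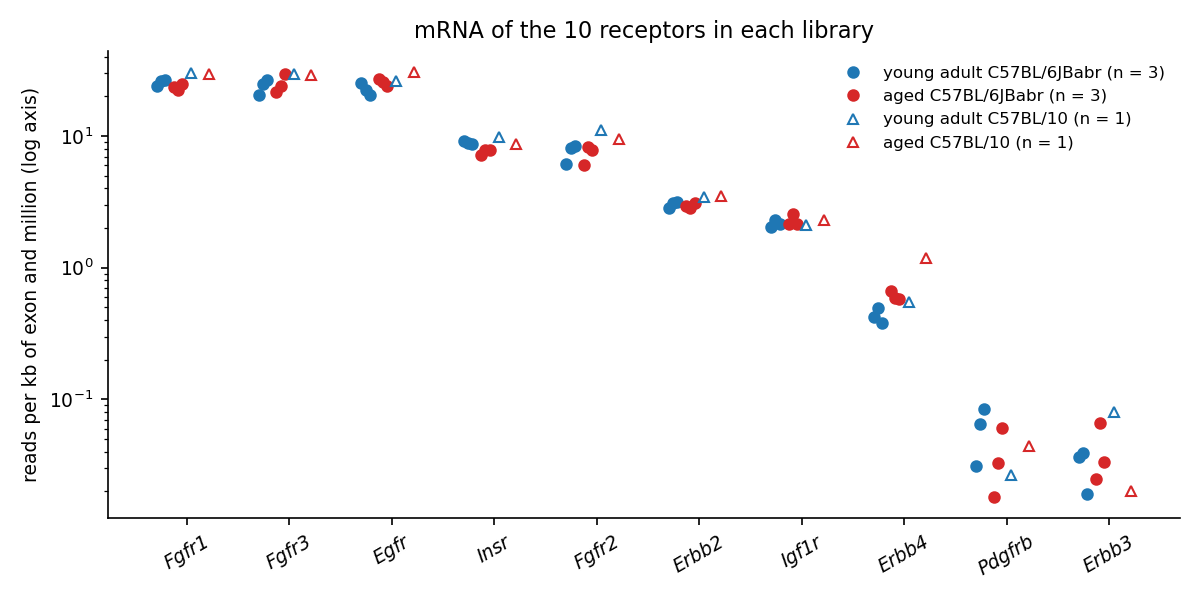
RPKM on a log axis for the 10 receptors, ordered by mean, 1 symbol per library (blue young adult, red aged, circles C57BL/6JBabr with n = 3 per age, triangles C57BL/10 with n = 1 per age). *Fgfr1*, *Fgfr3* and *Egfr* share the top level near 25 RPKM, and *Pdgfrb* and *Erbb3* stay below 0.1 RPKM in all 8 libraries.

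Age was compared on the deposited log2 RPM, 3 aged against 3 young adult C57BL/6JBabr derivations, with limma. Of the 10 receptors, 8 passed the filter on low values (mean log2 RPM not under -2) and were tested, and 0 of them reached an adjusted p under 0.05, where 0 of all 14858 genes tested did (0%). Unadjusted, 2 receptors (*Erbb4* and *Insr*) and 258 genes (1.74%) had a p under 0.05. Among all genes edgeR called 0, with 257 at an unadjusted p under 0.05, and the 4 called by DESeq2 (0.0269%) held 0 receptors. With the replicate number as a block 74 genes (0.498%) were called, and again 0 receptors. The ages did not overlap in 2 of the 8 receptors, against 772 genes (5.2%).

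Among the ErbB family, *Erbb4* (chromosome 1 of GRCm38, 68032186 to 69108059) differed most between the ages. Its log2 RPM was 2.34, 2.57 and 2.19 in young adult derivations 1, 2 and 3, and 3.02, 2.83 and 2.80 in the aged ones. The lowest aged library lay above the highest young adult library, as in 467 of all genes (3.14%). The difference was 0.51 (SE 0.15, 95% interval 0.16 to 0.87, adjusted p = 0.99998 in limma), and 0.128 was its adjusted p with the replicate block. *Erbb4* was higher in the aged library in 3 of 3 pairs of the same number, by 0.68, 0.26 and 0.61. With the block, leaving out either library of derivation 2 leaves the same contrast, that of pairs 1 and 3. The difference was then 0.64, with an adjusted p of 7.2e-05 without the young adult and 0.000104 without the aged library in limma. In these fits 462 and 461 of all genes were called (3.11% and 3.1%). They are 1 result, which rests on pairs 1 and 3 and on variance borrowed across genes. They were chosen after seeing the data, and the blocked fits without a library of number 1 or 3 called 0 receptors. In these bulk cultures, more cells with *Erbb4* and more RNA per cell cannot be told apart. The oligodendrocyte lineage list, summed, was at 1169 to 1353 RPM in young adult and 1307 to 1405 RPM in aged libraries. The neuronal list was at 8.01 to 10.9 and 8.75 to 13.3 RPM, the pericyte list at 17.1 to 20.3 and 17.8 to 29.1 RPM, and the astrocyte list at 2026 to 2400 and 1829 to 2043 RPM. The part of these lists in the *Erbb4* difference was not tested.

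*Egfr* (chromosome 11, 16752203 to 16918158), the EGF receptor, moved less. Its log2 RPM was 8.10, 7.95 and 7.82 in young adult and 8.23, 8.13 and 8.03 in aged derivations. The ages overlapped, because young adult derivation 1 lay above aged derivation 3, but the aged library was the higher in 3 of 3 pairs, as 29.3% of all genes kept 1 direction in 3 pairs. The difference was 0.17 (SE 0.10, 95% interval -0.066 to 0.42, adjusted p = 0.99998, and 0.439 with the block). For *Erbb2* (chromosome 11, 98412470 to 98437716) the libraries lay between 3.83 and 3.97 in young adult and 3.84 and 3.95 in aged cells, and the difference was -0.023 (95% interval -0.26 to 0.21). *Erbb3* (chromosome 10, 128567523 to 128589652) had a mean log2 RPM under the filter. It had 9, 4 and 3 reads in young adult and 6, 11 and 8 reads in aged derivations, with overlap, so no difference was detectable at this depth.

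The FGF receptors showed small differences with age. *Fgfr1* (chromosome 8, 25513654 to 25575714), a receptor of basic FGF, had 6.96, 7.10 and 7.12 log2 RPM in young adult and 6.93, 6.88 and 7.01 in aged derivations. The aged value was the lower in 3 of 3 pairs, the ages overlapped, and the difference was -0.12 (SE 0.084, 95% interval -0.31 to 0.074, adjusted p = 0.99998). *Fgfr2* (chromosome 7, 130162451 to 133123350) lay between 4.96 and 5.43 in young adult and between 4.96 and 5.39 in aged cells, a difference of -0.029 (95% interval -0.39 to 0.34). *Fgfr3* (chromosome 5, 33721724 to 33737068), which is also expressed by astrocytes, lay between 6.51 and 6.88 in young adult and between 6.58 and 7.03 in aged cells, a difference of 0.060 (95% interval -0.26 to 0.38). The spread between derivations of 1 age was larger than the age difference for both.

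*Insr* (chromosome 8, 3150922 to 3279617), the insulin receptor, was the other gene without overlap. Its log2 RPM was 6.44, 6.37 and 6.35 in young adult and 6.08, 6.19 and 6.19 in aged derivations. Every aged library lay below every young adult one, as in 305 of all genes (2.05%), and in 3 of 3 pairs the aged library was the lower. The difference was -0.23 (SE 0.077, 95% interval -0.41 to -0.054, adjusted p = 0.99998, and 0.245 with the block). Without the young adult or the aged library of derivation 2 the blocked difference, again that of pairs 1 and 3, was -0.26. Its adjusted p in limma was 0.0168 and 0.0166, with the same limits as for *Erbb4*. *Igf1r* (chromosome 7, 67952859 to 68226780) lay between 4.53 and 4.70 in young adult and between 4.61 and 4.86 in aged cells, and its difference of 0.075 (95% interval -0.17 to 0.32) was within the spread of the derivations. *Pdgfrb* (chromosome 18) was under the filter, with 7, 6 and 12 reads in young adult and 4, 5 and 13 in aged derivations. Of the 6 pericyte markers *Anpep* had at most 2, *Abcc9* 4, *Kcnj8* 9, *Rgs5* 14 and *Des* 31 reads in a library, while *Cspg4* had 258 to 1115.

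**Figure D2:**
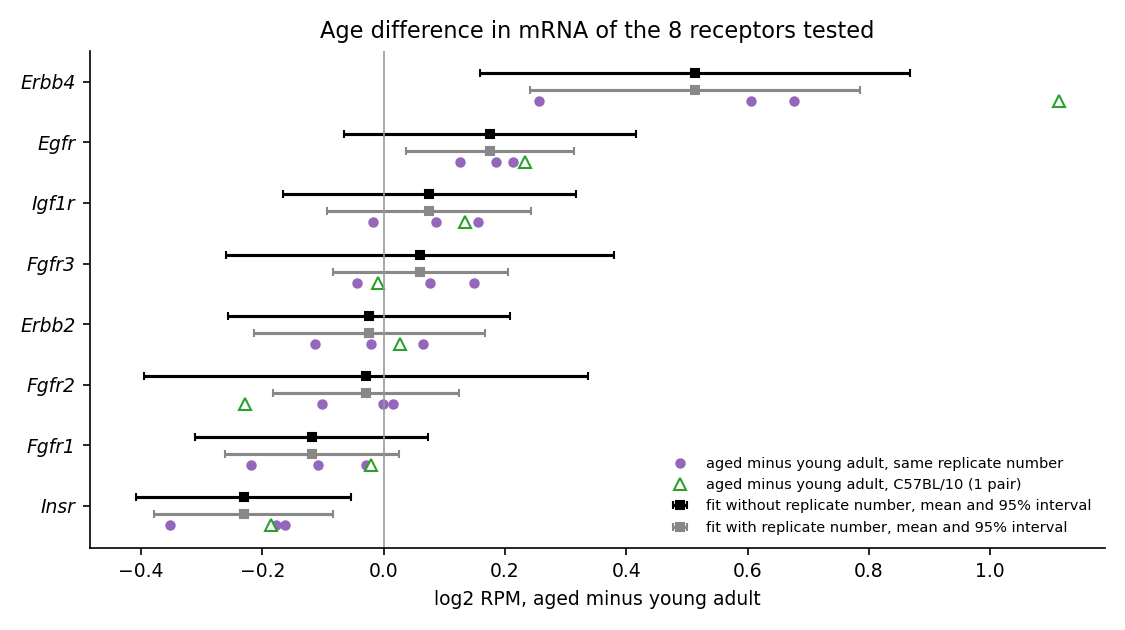
Difference in log2 RPM (aged minus young adult) for the 8 receptors tested. Squares with bars are the limma estimate and its 95% interval without (black) and with (grey) the replicate number, purple points the 3 pairs of the same number, green triangles the C57BL/10 pair. *Erbb4* lies farthest to the right at 0.51 and *Insr* farthest to the left at -0.23.

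Means by replicate number ranged more widely than the age difference for *Egfr*, *Erbb2*, *Fgfr2*, *Fgfr3* and *Igf1r*. They did not for *Erbb4*, *Fgfr1* and *Insr*. In the limma fit with age, the replicate number was significant for 3263 of 14858 genes (22%). It was so for 2 of the 8 receptors, *Fgfr2* (adjusted p = 0.00558) and *Fgfr3* (adjusted p = 0.0110). This is near the share of all genes, so it is no trait of the receptors. *Fgfr2* had a mean log2 RPM of 4.96 at number 1 against 5.39 and 5.38 at numbers 2 and 3, in both ages alike. *Fgfr3* was at 6.54, 6.74 and 6.95. The ranges of *Fgfr2* and *Fgfr3* were at percentiles 70.0 and 68.2 of all genes. *Insr* had the most even means, 6.26, 6.28 and 6.27, a range at the 0.498th percentile of all genes. *Egfr* ranged over 0.24 (adjusted p = 0.103) and *Erbb4* over 0.21 (adjusted p = 0.501). The labels leave unsaid what libraries of the same number have in common.

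The C57BL/10 pair asked whether the receptors differ by age in mice of another strain and facility. Among the 8 receptors tested *Erbb4* differed most, with a log2 RPM of 2.73 in the young adult and 3.84 in the aged library. That difference of 1.11 has no replicate, and 1500 of 14828 genes (10.1%) were past 1.5-fold in this pair, 751 of them higher with age (5.06%). *Erbb4* was the 1 receptor of the 8 tested that passed it. The other 7 differed by 0.23 (*Egfr*), 0.13 (*Igf1r*), 0.027 (*Erbb2*), -0.0094 (*Fgfr3*), -0.021 (*Fgfr1*), -0.19 (*Insr*) and -0.23 (*Fgfr2*). Under the filter, *Erbb3* had 13 reads in the young adult and 3 in the aged library, a difference of -1.97, and *Pdgfrb* 4 and 6 reads, a difference of 0.73. In the same pair the neuronal list went from 11.7 to 16.4 RPM (*Dcx* from 18 to 52 reads), the oligodendrocyte lineage list from 1350.5 to 1644 RPM, the pericyte list from 10.9 to 19.6 RPM and the astrocyte list from 2523 to 1838 RPM, and their part in these differences was not tested. *Egfr*, *Erbb4* and *Igf1r* had the same sign as the mean of the C57BL/6JBabr derivations, as did *Fgfr1*, *Fgfr2* and *Insr*. The age effects of both strains were compared by an interaction term, which was called in 1 of 14828 genes (0.00674%) and in 0 receptors (edgeR called 0 genes, and 240 had an unadjusted p under 0.05 in limma). For *Erbb4* the interaction was 0.60 (SE 0.30, 95% interval -0.094 to 1.29, adjusted p = 0.999999). With 1 C57BL/10 library per age, the error of this term comes from the spread of the C57BL/6JBabr libraries, and the lone libraries are assumed to vary likewise. For the other 7 it lay between -0.20 (*Fgfr2*) and 0.098 (*Fgfr1*).

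Between the strains, with age as a covariate, 4405 of 14828 genes (29.7%) were called, 2697 higher and 1708 lower in C57BL/10, and the median of all genes was shifted by 0.17. Receptors called were 3 of 8, all higher in C57BL/10 (18.2% of all genes were): *Erbb4* by 0.66 (SE 0.17, adjusted p = 0.0194), *Fgfr2* by 0.47 (SE 0.15, adjusted p = 0.0437) and *Fgfr1* by 0.29 (SE 0.077, adjusted p = 0.0227). Relative to the median shift these were 0.49, 0.30 and 0.11. With TMM scaling, which removes the shift, 2589 genes (17.5%) were called, 593 higher and 1996 lower, and 0 receptors, with *Erbb4* at 0.48 (adjusted p = 0.0897). *Insr* changed sign there, from 0.17 to -0.0059. edgeR called 17.3% of genes, with 4.25% higher in C57BL/10, and 0 receptors. DESeq2 called 19.3%, with 5.6% higher and 13.7% lower, and 1 receptor, *Erbb4*. The C57BL/10 libraries decided the counts, since 1425 genes and only *Erbb4* were called without the young adult one, and 1851 genes and 0 receptors without the aged one. The *Erbb4* difference was 0.96 (adjusted p = 0.0232) without the young adult and 0.36 (adjusted p = 0.313) without the aged C57BL/10 library. With 1 C57BL/10 library left, the error in these fits comes from the C57BL/6JBabr libraries alone, and the lone library is assumed to vary as they do. *Fgfr2* also lost its call without young adult C57BL/6JBabr derivation 2 (adjusted p = 0.0641) or aged derivation 1 (adjusted p = 0.0590). In *Fgfr1*, *Fgfr2*, *Erbb4*, *Egfr*, *Erbb2* and *Insr* the C57BL/10 library of each age lay above all 3 C57BL/6JBabr libraries of that age, as it did in 5779 of all genes (39%). Relative to the shift of all genes, *Insr* differed by -0.0064, *Erbb2* by 0.046 and *Egfr* by 0.059.

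ChIP-seq of H3K4me3 and H3K27me3 gave 1 value per age, over 3 derivations, in windows of 5000 bp around each start site, so no test between ages could be made. For each receptor the window with the highest H3K4me3 is described. *Igf1r* and *Egfr* were among the most strongly marked promoters, with H3K4me3 of 6.85 and 6.75 log2 RPM in young adult NSPCs, above 99.6% and 99.4% of the described windows of 25888 genes. *Erbb4* was next at 6.49 (98.2%), although its mRNA stood 8th of the 10 receptors. *Fgfr1* (6.12), *Fgfr3* (6.13) and *Insr* (5.84) lay above 87.2% of genes or more. *Erbb3* (5.32) and *Erbb2* (5.27) stood near the 70th percentile, and *Pdgfrb* alone was low at 1.75, with an Input of 1.29. The highest window listed for *Fgfr2* (6.43) is a distal start in the promoter of *Ctbp2*. The window Fgfr2-005 at the main cluster of *Fgfr2* starts had 6.22.

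H3K27me3 split the receptors along another line. *Erbb3* had the most, 3.62 log2 RPM in young adult and 3.73 in aged NSPCs (2.63 and 2.81 above Input). *Erbb2* (2.61 and 2.80), *Pdgfrb* (2.50 and 2.61) and *Igf1r* (2.39 and 2.50) also lay above Input, by 1.21 to 1.91. At these 4 the mark was above 86.9% of genes or more. *Egfr* had -0.43 and -0.45, which is 1.67 and 1.41 below Input, and *Insr* and *Fgfr1* were below Input as well. In 6 of the 10 receptors both marks were above 1 log2 RPM at both ages, a combination found in 18.2% of all genes: *Erbb2*, *Erbb3*, *Erbb4*, *Fgfr3*, *Igf1r* and *Pdgfrb*. The 2 receptors with the fewest RNA reads, *Erbb3* and *Pdgfrb*, were among them, and so was *Fgfr3*, one of the 3 with the highest mRNA level. The limit of 1 log2 RPM takes no account of Input. In young adult NSPCs Input was itself above 1 at *Fgfr3* (1.63) and *Pdgfrb* (1.29), and under 1 at the others of this group. *Fgfr3* did not exceed Input in H3K27me3 (-0.30 and -0.20), and *Erbb4* did so in young adult (0.57) but not in aged NSPCs (-0.28). In H3K4me3 *Pdgfrb* exceeded Input by 0.45 in young adult and 0.44 in aged NSPCs. The share of all genes with both marks was not counted above Input.

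Between the ages no receptor window passed the limits set for a change. A window counted as changed if it differed 1.5-fold and exceeded 1 log2 RPM at either age. On this count 0 of 53 receptor windows changed in H3K4me3 and 0 of 53 in H3K27me3, where 0.204% and 1.29% of all windows did. The receptor count stayed at 0 with a 2-fold difference (0.037% and 0.139% of all windows), after quantile normalization (0.213% and 1.23%) and with Input subtracted (2.7% and 0.979%). In windows above that level H3K4me3 was 0.21 higher in aged NSPCs in the median, and the described windows of 9 receptors were higher by 0.11 (*Erbb2*) to 0.32 (the distal *Fgfr2* start), while *Pdgfrb* differed by -0.25. The shift over all windows fell to 0.0019 after quantile normalization, and *Insr* (-0.044), *Erbb3* (-0.078) and *Erbb2* (-0.10) then turned sign. With Input subtracted, *Igf1r* (-0.013), *Fgfr1* (-0.062), *Erbb4* (-0.087), *Insr* (-0.21) and *Erbb2* (-0.39) turned sign, and *Egfr* and *Fgfr3* differed by 0.54 and 0.52. The direction of the H3K4me3 difference thus depended on the scaling for 6 receptors. *Erbb4* showed the widest H3K27me3 difference among the described windows, -0.46 at Erbb4-002 with 1.04 in aged NSPCs. The overlapping window Erbb4-001 went from 1.46 to 1.02. Input moved in the opposite direction at Erbb4-002, from 0.93 to 1.32, so that the mark above Input differed by -0.85 (0.57 in young adult and -0.28 in aged NSPCs). This exceeds 1.5-fold, and the window was not counted because its level above Input was under 1. For the other described windows the H3K27me3 difference lay between -0.15 (*Fgfr3*) and 0.19 (*Erbb2*). With Input subtracted these turned sign for *Egfr* (0.26), *Fgfr3* (0.094), *Igf1r* (-0.15), *Insr* (-0.23) and *Erbb2* (-0.32), and after quantile normalization for *Egfr* (0.15). Where the level was set at a log2 RPM above 0, 2 receptor windows counted as changed in H3K4me3 (Fgfr1-007 and Fgfr2-024, 2.14% of all windows). In H3K27me3 4 did (Erbb4-003, Fgfr2-022, Fgfr2-023 and Fgfr2-026, 6.18% of all windows), of which Fgfr2-022 and Fgfr2-023 overlap. All of them lay at internal starts.

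**Figure D3:**
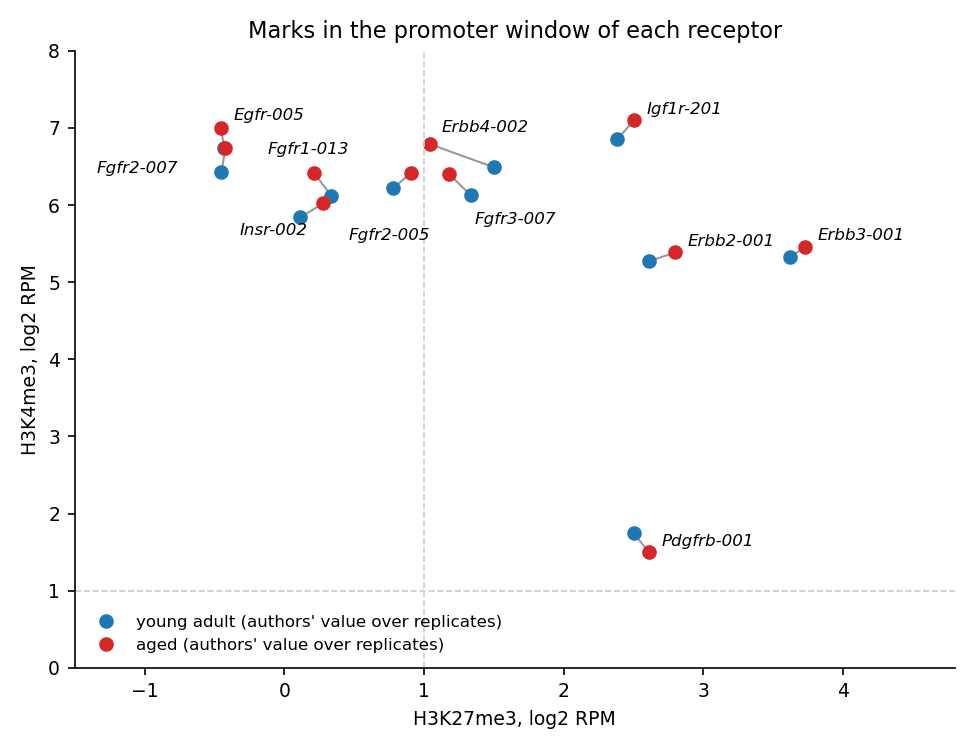
H3K4me3 (vertical) against H3K27me3 (horizontal; both log2 RPM, 5000 bp windows) for the described window of each receptor and for Fgfr2-005, young adult (blue) joined to aged (red), each point the authors' value over 3 derivations. Dashed lines mark 1 log2 RPM. *Erbb2*, *Erbb3*, *Erbb4*, *Fgfr3*, *Igf1r* and *Pdgfrb* lie past both lines at both ages, *Pdgfrb* with the lowest H3K4me3 of the 10 (1.75 in young adult NSPCs).

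DNA methylation was read by oxidative bisulfite sequencing (oxBS, 5mC alone) and bisulfite sequencing (BS, 5mC and 5hmC together) in 3 derivations per age, with 13616283 to 30400033 calls per library and 1.20 to 1.48 calls per CpG position, so calls were summed over regions. Described promoter windows were poorly methylated in most receptors. *Igf1r* was lowest, with 5mC of 1.99% ± 0.664 at the young adult and 1.63% ± 0.875 at the aged stage (SD, n = 3; 206 to 386 calls per library). *Pdgfrb* was highest with 56.8% ± 5.59 and 65.0% ± 0.0375 (SD, n = 3; 60 to 97 calls), and *Insr* followed with 30.7% ± 7.68 and 26.4% ± 8.64 (SD, n = 3). In the 1000 bp around the start, *Erbb4*, *Igf1r* and *Fgfr1* had 0 methylated calls in all 6 oxBS libraries, *Insr* at most 2.56%, and *Pdgfrb* 25.5% ± 13.3 and 38.7% ± 9.97 (SD, n = 3).

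The printed sequences carry the same contrast. Over the 300 bases of the RefSeq window, which adds 50 bases after the start, *Erbb4* had 0 of 104 and *Erbb2* 0 of 75 oxBS calls methylated with all libraries summed, which allows up to 2.88% and 4.00%. *Egfr* had 3 of 78 (3.85%, 95% Wilson interval 1.32% to 10.7%). The CpG-poor *Fgfr2* window had 23 of 31 (74.2%, 56.8% to 86.3%), while the 1000 bp around Fgfr2-004, whose start lies further along the gene, was at 1.19% ± 0.779 and 1.43% ± 1.42 (SD, n = 3). These intervals cover counting error only.

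No receptor region passed the test for 5mC with age. Of 69710 promoter windows 0 were called by the quasi-binomial model (0%), and of the 51 receptor windows tested 6 had an unadjusted p under 0.05, where 5.32% of all windows did. Those 6 belong to *Fgfr1* and *Fgfr2*, and all but Fgfr1-012 overlap another of them. At the overlapping *Fgfr2* windows Fgfr2-002, Fgfr2-003 and Fgfr2-004, 5mC was higher in the aged libraries by 6.19, 6.08 and 6.34 percentage points, with 13.6% ± 2.11 against 19.9% ± 0.802 at Fgfr2-004 (SD, n = 3; adjusted p = 0.928). BS calls of Fgfr2-004 differed by -0.41 percentage points. At the most upstream start of *Fgfr1*, Fgfr1-012 had 54.2%, 61.9% and 65.7% in young adult and 66.0%, 78.4% and 83.9% in aged libraries, on 53 to 105 calls. Within the gene, Fgfr1-008 had 83.3%, 85.4% and 89.8% in young adult and 63.0%, 75.8% and 75.4% in aged libraries. Fgfr1-007, which overlaps Fgfr1-008 and also holds a start of *Gm16159*, was lower by 11.2 percentage points. All 3 *Fgfr1* windows had an adjusted p of 0.928 in the quasi-binomial model. In BS calls the differences were 6.39 percentage points at Fgfr1-012, -1.45 at Fgfr1-008 and 0.92 at Fgfr1-007. The oxBS libraries of both ages did not overlap in 10 of the 51 receptor windows, where 10.2% of all windows had no overlap. Beside these 6 windows they were Fgfr2-005, Fgfr3-201, Pdgfrb-001 and Pdgfrb-002. Fgfr2-005 overlaps the other *Fgfr2* windows named, and the *Pdgfrb* windows overlap each other. Thus 6 and 10 of 51 are not counts of separate regions and cannot be weighed against the shares of all windows.

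In group means, gene bodies were more methylated than the described 5000 bp windows in all 10 receptors, with the least distance in *Pdgfrb* (67.3% against 65.0% in aged NSPCs). *Erbb4* was highest with 76.7% ± 1.47 and 77.8% ± 1.15 (SD, n = 3), above 81.9% of 23221 gene bodies, and *Fgfr3* lowest with 42.7% ± 2.44 and 42.5% ± 4.47 (SD, n = 3). Of 22276 gene bodies 0 were called (0%), and 1 of the 10 receptors had an unadjusted p under 0.05 (4.84% of all bodies). This was *Egfr*, with 71.6%, 72.3% and 74.03% in young adult and 68.9%, 69.3% and 69.9% in aged libraries, on 1094 to 1671 calls each. All aged libraries were below all young adult ones, a difference of -3.28 percentage points (adjusted p = 1.00 in the quasi-binomial model across all bodies). The ages did not overlap in 9.85% of all bodies, and in 1 of the 10 receptors. Over 22220 bodies 0 changed in 5hmC (983 with an unadjusted p under 0.05), and 0 of the 10 receptors had an unadjusted p under 0.05. The 5hmC of the receptor bodies, BS minus oxBS, lay between -4.69 (*Fgfr3*, aged) and 5.87 percentage points (*Erbb2*, aged) in group means. A true level cannot be negative, so differences of this size were not detectable at this depth.

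**Figure D4:**
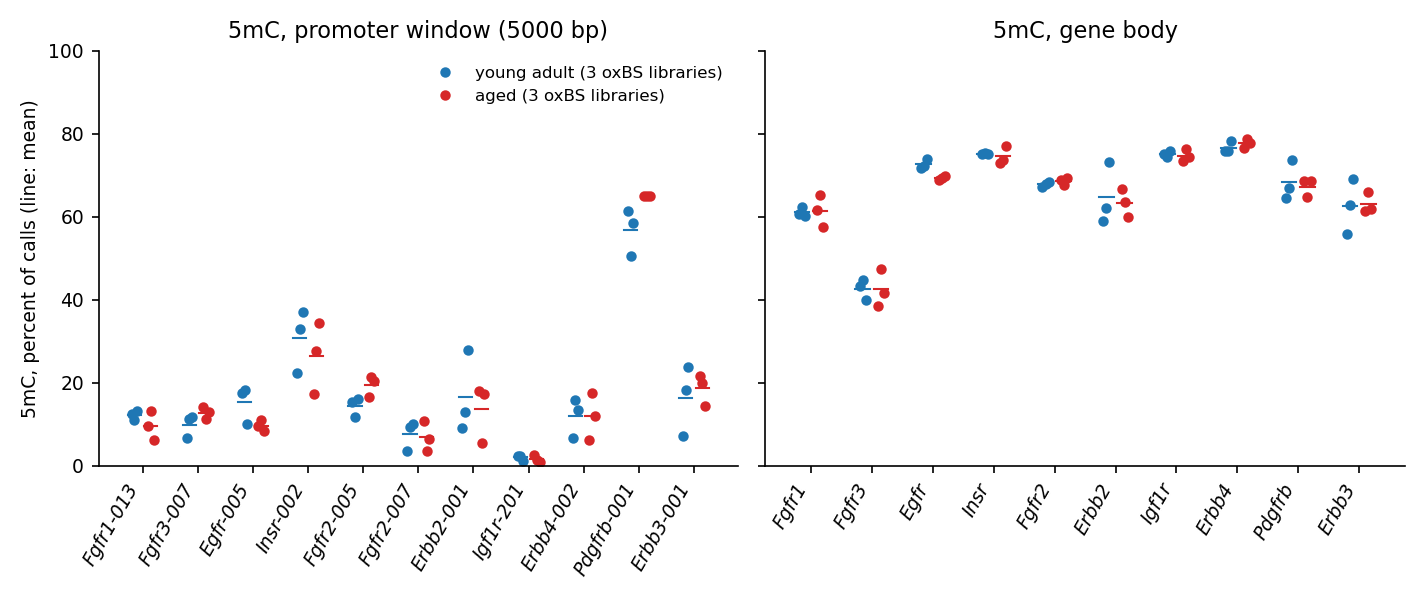
5mC (percent of oxBS calls) in the described promoter windows of 5000 bp (left) and in gene bodies (right) of the receptors, 1 point per library and a line at the mean of each age (blue young adult, red aged, n = 3 each). Windows range from *Igf1r* with a mean of 1.99% to *Pdgfrb* with 56.8% in young adult NSPCs, and the bodies from *Fgfr3* with 42.7% to *Erbb4* with 76.7%.

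The ligands and the signalling chain of these receptors were counted over lists of genes, each beside a median difference of 0.0015 over all 14858 genes tested. Of all these genes 0 were called without the block (0%) and 74 with it (0.498%). A count of 0 in a list, here or below, is therefore no trait of that list. Of 11 EGF family ligands 9 were tested and 0 passed (median 0.010). *Hbegf* led with 112 RPKM, followed by *Nrg4* with 1.83 RPKM, and *Btc* had the widest difference, -0.84 (SE 0.67), before *Ereg* with -0.44 (SE 0.51). Of 18 FGF ligands 4 were tested and 0 passed (median 0.19), with *Fgf1* at 4.65 and *Fgf18* at 0.379 RPKM, and *Fgf20* (0.38) and *Fgf2* (0.31) as the widest differences. Both insulin family ligands that were tested, *Igf2* (0.256 RPKM, -0.20) and *Igf1* (0.128 RPKM, -0.71), did not pass. Of 4 PDGF ligands 3 were tested and 0 passed (median 0.11), with *Pdgfa* at 26.2 and *Pdgfc* at 0.851 RPKM, and *Pdgfb* had a difference of 0.23. For *Pdgfa* the difference was -0.12.

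Of the 7 insulin-like growth factor binding proteins 5 were tested, and 1, *Igfbp5*, fell in the fit with the replicate block (0.296% of all genes did). *Igfbp5*, a secreted protein that binds these growth factors, had 5.20, 5.70 and 5.89 log2 RPM in young adult and 4.94, 5.11 and 5.34 in aged derivations. The ages overlapped without regard to number, but the aged library was lower in 3 of 3 pairs, by 0.47 on average (adjusted p = 0.99998 without and 0.0306 with the block). In the C57BL/10 pair it went from 5.89 to 5.45. *Igfbp3* and *Igfbp2* were the most abundant of the list with 493 and 487 RPKM. The median of the list was -0.26.

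Among the other receptors and coreceptors 4 of 8 were tested and 0 passed (median -0.18). Of all genes 0% passed without and 0.498% with the block. *Fgfrl1* (27.8 RPKM) and *Igf2r* (11.1 RPKM) led the list, with *Pdgfrl* at -0.50 (SE 0.49) and *Pdgfra* at -0.19. All 11 adaptors were tested and 0 passed (median 0.094), led by *Ptpn11* (27.9 RPKM) and *Grb2* (20.4 RPKM), with *Gab1* (0.20) and *Frs2* (0.16) as the widest differences. All 15 feedback inhibitors were tested and 0 passed (median 0.069). *Lrig1*, which promotes loss of ErbB receptors, led with 153 RPKM before *Spry2* with 79.6 RPKM, and *Lrig3* (0.18) and *Dusp5* (0.16) had the widest differences. Of the 12 transcription factors and cyclins downstream of ERK, 1 rose with the block (0.202% of all genes did), *Myc*, at 5.37, 5.46 and 5.21 log2 RPM in young adult and 5.74, 5.83 and 5.54 in aged derivations. Every aged library lay above every young adult one (3.14% of all genes). The difference was 0.35 (adjusted p = 0.99998 without and 0.0452 with the block), and the C57BL/10 pair went from 4.97 to 5.63. *Ccnd1* and *Fos* led this list with 462 and 314 RPKM, and its median was 0.051.

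The 8 libraries differ in strain, age and derivation. Over them, the genes whose log2 RPM followed 4 of the receptors most closely were listed among 14827 others. For *Egfr* these were *Mark3* (Pearson r = 0.982), *Adamts19* (0.977) and *Elfn1* (0.976). For *Erbb4* they were *Numa1* (0.996), *Arhgef7* (0.993) and *Tmem86b* (0.981), for *Fgfr3* *Rab32*, *Fam154b* and *Lonrf1* (0.984 each), and for *Pdgfrb* *Dock6* (0.976), *Gm14256* (0.972) and *Lrch1* (0.963). A value above 0.95 was reached by 34 genes for *Egfr*, 23 for *Erbb4*, 136 for *Fgfr3* and 4 for *Pdgfrb*. The C57BL/10 aged library, far above the rest for *Erbb4*, is 1 of the 8 points. *Pdgfrb* was under the filter on low values, with 4 to 13 reads per library, so its correlations rest on few counts. All genes named were picked as the highest of 14827 correlations over 8 points. High values follow from that choice and were not tested.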

How the data were processed

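The authors deposited RNA as log2 RPM for 25965 genes and 8 libraries. From these values whole reads were recovered (100% of values between 1 and 1000 reads were whole within 0.02 reads), and a gene without reads held 0.9 reads. The ChIP log2 RPM were deposited as 1 value per age over 3 replicates. For each covered cytosine the authors deposited counts of methylated and unmethylated calls, and the deposited percent of methylation was not used. The submitters' processing notes name Trim Galore 0.3.7 and 0.4, STAR 2.3.0, Bowtie2 2.2.5 and Bismark 0.12.5, with GRCm38.

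The members and lists were chosen with earlier results of these data known. RNA was compared with limma 3.58.1 (mean-variance trend, Benjamini-Hochberg, threshold 0.05) over genes averaging -2 log2 RPM or more, with edgeR 4.0.16 and DESeq2 1.42.0 in R 4.3.3 as alternatives. For methylation, calls were summed over windows or GENCODE vM21 gene bodies, regions under 10 calls in any library were left out, and a quasi-binomial model was fitted. Promoter windows also needed a difference of 10 percentage points. Scripts used Python 3.11.15, numpy 2.4.6, pandas 2.3.3 and scipy 1.17.1. Simulated data were used to check the RNA test between ages without the block and the test of oxBS calls between ages. The blocked RNA fit, the replicate-number, strain and interaction tests and the test on BS minus oxBS were not checked this way. RPKM used the exons of GENCODE vM21. Young adult and aged RNA libraries of the same replicate number deviated together (correlations across genes 0.659, 0.179 and 0.724, all over 0.1) and were treated as pairs in the blocked fit. The labels do not say what a number shares, and p-values measure the spread between derivations.

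All 10 receptors were named. From each list came the genes called for age with or without the block, the 2 with the highest RPKM and, where no gene passed, the 2 with the widest difference. For *Egfr*, *Erbb4*, *Fgfr3* and *Pdgfrb* the 3 genes with the highest correlation were named.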

Additional observations from a re-analysis of the deposited data

Results flagged for a closer look

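*Pdgfrb* is listed because all 3 C57BL/6JBabr pairs went one way with age and the 1 C57BL/10 pair the other. In C57BL/6JBabr the aged value of each pair fell by 0.77, 0.97 and 0.48 on the log2 scale, while in C57BL/10 the aged library was 0.73 higher. These values rest on 4 to 13 reads per library. In the fit without a filter on low values, the interaction of age and strain was 1.47 (SE 1.14, 95% interval -1.10 to 4.05, adjusted p = 0.999999 in limma). The mean difference also had opposite signs in *Erbb3*, *Erbb2* and *Fgfr3*, but their 3 pairs did not all go one way. For *Erbb3* the pairs differed by -0.55, 0.75 and 0.82 and the C57BL/10 pair by -1.97, on 3 to 13 reads per library. No group had the 4 libraries needed to look for a library far from the rest.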

How the results depend on the processing

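The receptor count stayed at 0 for age in all RNA alternatives except the blocked fits without a derivation 2 library. Genes called for age rose from 0 to 74 with the replicate block, 83 with edgeR and the replicate block (chosen after seeing the data) and 4 with DESeq2, and leaving out 1 library gave 0 to 462 genes and 0 to 2 receptors. With the block, fits without 1 library were also chosen after seeing the data. They called 405 genes without either library of number 1, 462 and 461 without young adult or aged number 2, and 73 and 74 without number 3. Leaving out the young adult or the aged library of a number compares the same remaining pairs, so these are not separate results. Between strains TMM gave 2589 genes and 0 receptors, edgeR 2572 and 0, DESeq2 2868 and 1, and leaving out 1 library 1425 to 4638 genes and 0 to 4 receptors. The interaction was called in 0 genes with edgeR and in 0 without each of the 6 C57BL/6JBabr libraries in turn, and no such fit is possible without a C57BL/10 library. Changed windows numbered 27 (2-fold), 1561 (level above 0), 1972 (Input subtracted) and 55 (1 window per gene) in H3K4me3, and 101, 4506 and 388 (1 window per gene) in H3K27me3, with 2 and 4 receptor windows at a level above 0. 5mC and 5hmC gave 0 calls in all alternatives, the replicate block included. Same-number correlations of 3542 gene bodies were 0.081, 0.078 and 0.066 in oxBS and 0.064, 0.036 and 0.13 in BS, so methylation libraries were not taken as paired. The block changed no receptor's call, with *Egfr* at 0.17, *Erbb4* at 0.51 and *Insr* at -0.23 in both fits.

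Signs turned without 1 library for *Fgfr3* (-0.064 to 0.16), *Igf1r* (-0.0072 to 0.12), *Fgfr2* (-0.18 to 0.11, 0.0072 with the block and without number 3) and *Erbb2* (-0.070 to 0.022, 0.0043 without young adult number 3) with age, for *Igf1r* between strains (-0.036 to 0.030) and for the interaction of *Fgfr3* (-0.17 to 0.055) and *Egfr* (-0.015 to 0.13). *Insr* turned between strains to -0.0059 with TMM and -0.0069 with edgeR. In percentage points, 5mC of bodies turned for *Fgfr3* (-2.56 to 1.85), *Igf1r* (-1.20 to 0.23), *Insr* (-1.93 to 0.11), *Fgfr1* (-1.55 to 2.40), *Erbb3* (-2.94 to 3.67), *Erbb2* (-4.30 to 2.82) and *Pdgfrb* (-2.96 to 1.54) without 1 library, and with BS calls for *Igf1r* (0.44) and *Erbb2* (4.88). With BS calls Fgfr2-004 was at -0.41, Fgfr2-002 at -0.69, Fgfr2-003 at -0.95 and Fgfr1-007 at 0.92, and in 1000 bp Fgfr2-002 was at -0.040 and Fgfr2-003 at -0.059. The causes were not tested. Read depth limits *Erbb3* and *Pdgfrb*, and call depth limits 5hmC. The *Fgfr2* body without its distal transcript was at 67.6% ± 3.69 and 70.5% ± 0.142.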
